A study of Mus musculus with 8 samples.

Results

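Promoter regions at which the acetylation of lysine 27 on histone H3 (H3K27ac) was lower in Nrip1KO than in Ctrl myotubes were examined on chromosomes 1 to 19 and X, leaving out chromosomes 4, 7, 10 and 16. Nrip1 encodes RIP140, a corepressor that nuclear receptors recruit. The regions were chosen by their measured signal, since the authors listed a region when its H3K27ac intensity differed by 2-fold or more between the genotypes, and by position, since the centre of each lay within 1 kb of an annotated transcript start. The rule gave 606 regions, which were 11.1% of the 5445 decreased regions on these 16 chromosomes and part of 11180 listed regions of either direction in the whole series. The same rule applied to the list of increased regions gave 312 of 2358 (13.2%), and these increased promoter regions served as the comparison. The last region inside the distance limit lay 998 bp from a start (Brpf3) and the nearest outside lay 1000.5 bp from one (Gm17875). There were 31 decreased regions between 900 and 1000 bp and 39 between 1000 and 1100 bp, so the counts on either side of the limit were similar.

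The libraries came from primary myotubes, the fused muscle cells that satellite cells of mouse gastrocnemius form in culture, after 4 days of differentiation. The 8 CUT&RUN libraries fell into 4 groups of 2, namely Nrip1KO and Ctrl myotubes, each with an antibody to H3K27ac and with control IgG. Per the methods of the study, the KO mice (strNrip1-/-) carried Nrip1 fl/fl alleles and a Cre recombinase driven by the muscle creatine kinase promoter, the controls were Cre-negative littermates, the floxed mice were C57BL/6J and the Cre mice C57BL/6JN, and nuclei were pooled and then divided between antibodies. That promoter turns on as muscle cells differentiate, and the lists hold no value with which to check the loss of Nrip1 or the purity of the cultures. The files give positions of changed regions alone, without a fold change, a depth or a value per library. Each p-value below therefore takes regions as its units, describes the 2 lists, and measures no agreement between cultures. Regions of one gene or one neighbourhood are not independent, and a decrease in cells that carry the mark cannot be told apart from a decrease per cell.

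H3K27ac is laid down by p300 and CBP and marks promoters and enhancers in use. At an active promoter it flanks the nucleosome-depleted start, and most promoters of widely expressed genes lie in CpG islands, stretches in which the CG dinucleotide has been kept at the density that base composition predicts. Promoters of muscle genes that turn on during differentiation are often poor in CpG and carry short elements for muscle transcription factors, among them the E-box CAGCTG bound by MyoD and myogenin and the A/T-rich element bound by MEF2.

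The sequences that follow show these promoter types among the decreased regions, read 5′ to 3′ along the gene from GRCm38.p6, whose sequence is that of mm10. They were picked after the regions had been seen. The 4 stretches of 100 bases around the E-box (in capitals) nearest to the start came from CpG-poor regions at genes of muscle, and the E-box centres lay 113 bp (Chrne), 301 bp (Acacb) and 78 bp (Fhl2) upstream and 173 bp (Dhrs7c) downstream of the start.
Chrne, chr11:70619280-70619379, minus strand: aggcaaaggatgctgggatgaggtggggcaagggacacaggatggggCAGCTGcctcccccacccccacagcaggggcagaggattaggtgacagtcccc
Acacb, chr5:114146184-114146283, plus strand: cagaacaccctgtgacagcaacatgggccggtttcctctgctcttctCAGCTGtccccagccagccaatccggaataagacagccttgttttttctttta
Fhl2, chr1:43197013-43197112, minus strand: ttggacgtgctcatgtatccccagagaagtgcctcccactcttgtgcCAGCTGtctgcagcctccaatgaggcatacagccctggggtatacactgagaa
Dhrs7c, chr11:67798410-67798509, plus strand: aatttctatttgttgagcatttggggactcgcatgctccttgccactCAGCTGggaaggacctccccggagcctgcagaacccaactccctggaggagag
The 100 bases before the start of Ampd1 hold an A/T-rich element (in capitals) that matched both the MEF2 and the TATA box pattern, which overlap in it.
Ampd1, chr3:103073914-103074013, plus strand: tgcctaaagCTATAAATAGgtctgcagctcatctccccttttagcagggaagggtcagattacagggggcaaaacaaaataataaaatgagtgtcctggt
In contrast, the 150 bases before the starts of Cox6a1, Ccnf and Ggcx are of the CpG island type. The CG dinucleotides, in capitals, number 17, 9 and 16.
Cox6a1, chr5:115348982-115349131, minus strand: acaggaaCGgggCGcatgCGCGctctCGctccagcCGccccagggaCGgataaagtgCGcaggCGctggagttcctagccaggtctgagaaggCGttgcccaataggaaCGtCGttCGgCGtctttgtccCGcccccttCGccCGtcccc
Ccnf, chr17:24251410-24251559, minus strand: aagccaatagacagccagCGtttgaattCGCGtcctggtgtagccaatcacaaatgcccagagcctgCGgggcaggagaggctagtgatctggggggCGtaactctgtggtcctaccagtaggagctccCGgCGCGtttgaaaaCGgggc
Ggcx, chr6:72414158-72414307, plus strand: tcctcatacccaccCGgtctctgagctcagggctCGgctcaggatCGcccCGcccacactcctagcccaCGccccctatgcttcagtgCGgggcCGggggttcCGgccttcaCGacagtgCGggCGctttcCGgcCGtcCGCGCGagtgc

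Principal starts of protein-coding genes were a minority of the decreased promoter regions. A principal start is that of a protein-coding transcript that the annotation (GENCODE M21) marks as the main isoform. Transcripts so marked were 20.1% of those annotated on these chromosomes, a share of transcripts and not of regions. Of the 606 regions, 227 (37.5%; 95% Wilson interval 33.7 to 41.4, counting error only) lay within 1 kb of a principal start, some with another start nearer. Another 67 (11.1%) lay nearest to a different protein-coding start, 147 (24.3%) to the start of a non-coding transcript of a protein-coding gene, and 165 (27.2%) to a non-coding gene. Among the increased promoter regions, 176 of 312 (56.4%; 50.9 to 61.8) were at principal starts and 34 (10.9%) at non-coding transcripts of protein-coding genes. The share whose nearest start belonged to a protein-coding transcript was 40.4% of decreased and 58.3% of increased regions (odds ratio 0.485, adjusted p = 9.22e-07, two-sided Fisher's exact test with Benjamini-Hochberg adjustment over 5 properties). The difference missed the threshold among regions at least 1 kb wide, at -13.5 percentage points (adjusted p = 0.121, Fisher's exact test).

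**Figure D1:**
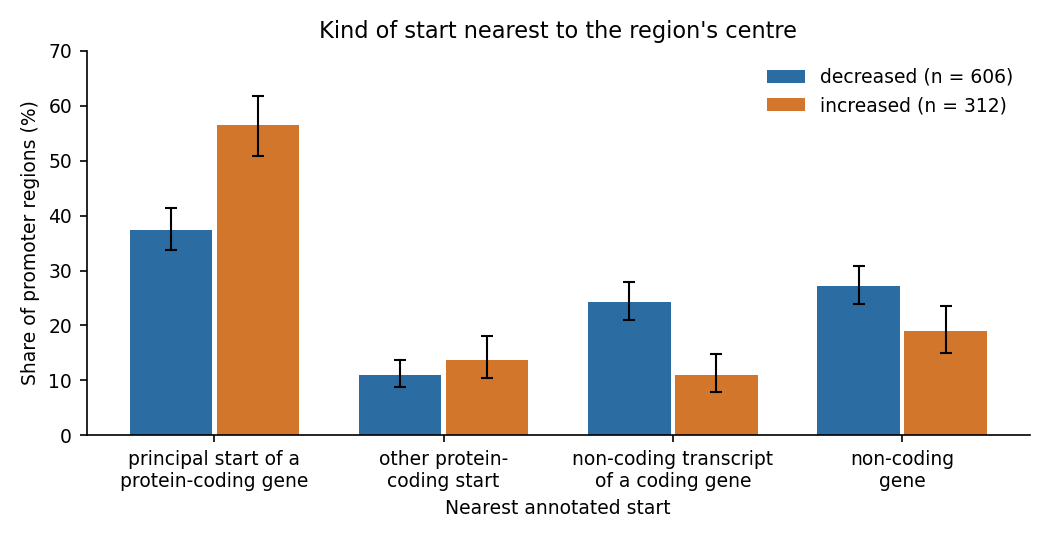
Share of decreased (n = 606) and increased (n = 312) promoter regions by kind of start, in percent, with 95% Wilson intervals as error bars (counting error only). A region within 1 kb of a principal start was counted there even if another start was nearer. The rest were placed by the nearest start. Decreased regions were at principal starts in 37.5% and increased regions in 56.4%, and the order was the opposite at non-coding transcripts of protein-coding genes (24.3% and 10.9%).

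The decreased regions away from principal starts mostly lay inside genes. Of these 379 regions, 278 (73.4%) had their centre in the body of a protein-coding gene, and the median distance to the nearest principal start was 17658.5 bp (quartiles 6993 and 50507.8 bp). Increased regions away from principal starts lay inside protein-coding genes about as often, at 74.3% of 136. Their median distance to the nearest principal start was 25306.2 bp (quartiles 5579.38 and 72629.5 bp). The transcripts that placed the decreased regions in the promoter class were often partial. Over all 606 decreased regions the nearest transcript was a retained intron in 102 and a processed transcript in 78. Plxna1, a semaphorin receptor, had 4 decreased promoter regions, more than any other gene, and each lay at a non-coding transcript start within the gene. Fgfr4, a growth factor receptor of myogenic cells, and Stat5a, Traf6, Col4a1 and Col7a1 were in the same position. For such regions an internal enhancer cannot be told apart from a promoter by position. Over all 606 regions the gene at the nearest start was a lincRNA in 51, an antisense RNA in 39 and a miRNA in 6. Pvt1, the transcript beside Myc, and Chaer1, a regulator of cardiac hypertrophy, were among the lincRNAs.

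At principal starts the decreased regions lay over the start more often than the increased regions did. The region covered the principal start in 155 of 227 decreased (68.3%) and 58 of 176 increased regions (33.0%; odds ratio 4.38, adjusted p = 9e-12, Fisher's exact test). When each region was replaced by its central 500 bp, so that width played no part, the difference was 21.5 percentage points (adjusted p = 1.49e-05, exact test). Over all starts the shares were 63.2% and 45.5% (odds ratio 2.06, adjusted p = 9.22e-07, exact test), but here the difference fell to 6.28 percentage points with the central 500 bp (adjusted p = 0.104). The centre lay within 200 bp of the nearest start in 40.5% of decreased and 28.4% of increased regions at principal starts, compared with 20.8% and 22.1% at all other starts. The split by principal starts was chosen after the data had been seen. Upstream centres made up 45.0% of decreased and 43.6% of increased regions (adjusted p = 0.726, Fisher's exact test). Starts of other genes on the opposite strand, within 1 kb of the nearest start on either side, were also counted. They were present at 9.08% of decreased and 14.4% of increased regions (odds ratio 0.592, adjusted p = 0.0307, exact test). The difference was smaller at principal starts, at 15.9% and 19.9% (adjusted p = 0.295, exact test). Such starts are called divergent here, although no head-to-head order was required.

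**Figure D2:**
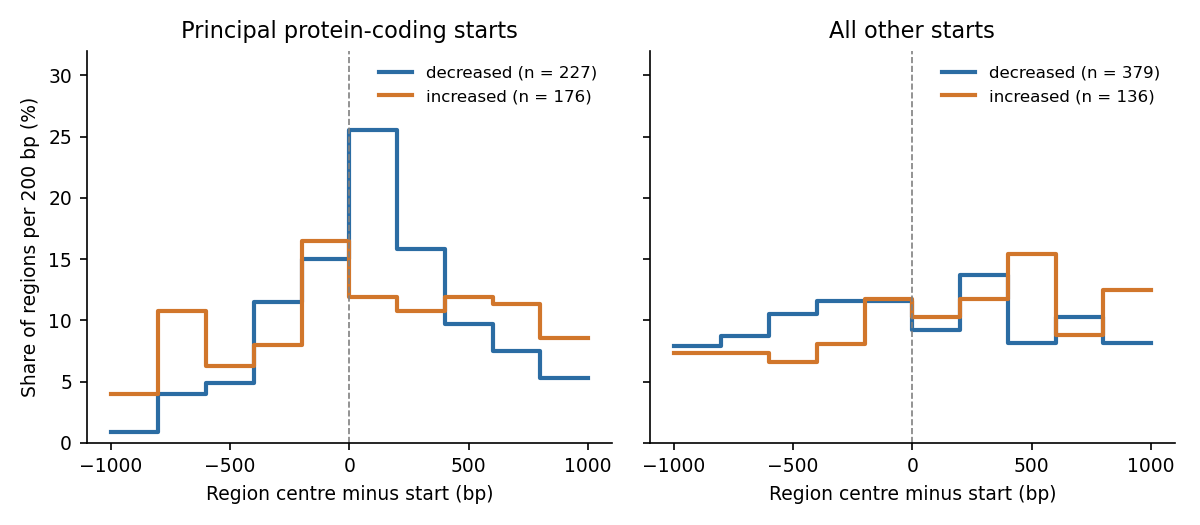
Position of the region's centre relative to the nearest transcript start, in bp along the transcript, as percent of regions per 200 bp, for regions within 1 kb of a principal protein-coding start (left) and at all other starts (right). At principal starts 40.5% of the 227 decreased regions and 28.4% of the 176 increased regions were centred within 200 bp of the start, and at other starts the shares were 20.8% and 22.1%.

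CpG density followed the kind of start. A region was called CpG-dense when its central 500 bp had at least 50% GC and an observed to expected CpG ratio of at least 0.6. By this measure 88 of 606 decreased (14.5%) and 40 of 312 increased promoter regions (12.8%) were CpG-dense, which did not pass the test (adjusted p = 0.683, Fisher's exact test). Of 16652 principal starts on the same chromosomes 50.6% were CpG-dense. That reference was read in 500 bp centred on the start and covers principal starts only, so it is not a like measure. Among regions at principal starts the shares were 35.2% and 18.2% (odds ratio 2.45, adjusted p = 0.000275, exact test). The result turned with the place at which sequence was read: in 500 bp centred on the start itself 23.1% of decreased and 37.8% of increased regions were CpG-dense (adjusted p = 7.27e-06, exact test), and at principal starts alone 53.3% and 55.7%. Away from principal starts 2.99%, 2.04% and 1.82% of decreased regions were CpG-dense at other protein-coding starts, non-coding transcripts and non-coding genes. The shares of increased regions there were higher, at 6.98%, 5.88% and 5.08%. These rest on 3, 2 and 3 CpG-dense increased regions, and the difference was not tested. GC content had a median of 52.0% in decreased and 45.8% in increased promoter regions and was higher in the decreased ones on 15 of 16 chromosomes, while the CpG ratio ran the other way, with medians of 0.230 and 0.362.

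**Figure D3:**
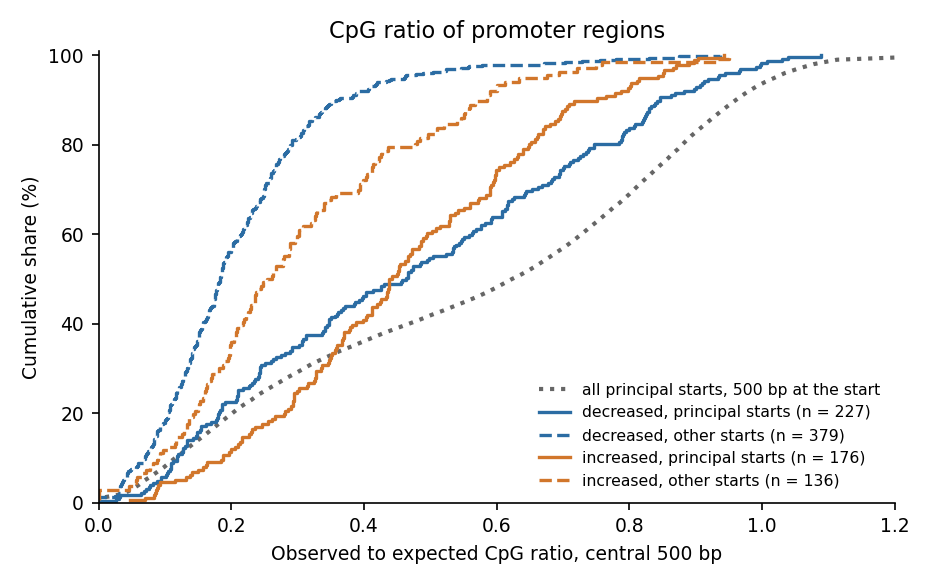
Cumulative share of regions (percent) against the observed to expected CpG ratio of the central 500 bp, for decreased and increased regions at principal and at other starts, with all 16652 principal starts read in 500 bp at the start as a dotted line. Decreased regions at other starts (n = 379) rise at the lowest ratios. At principal starts the curves of decreased (n = 227) and increased regions (n = 176) cross. The lower quartiles there are 0.214 and 0.302, the medians 0.463 and 0.440, and the upper quartiles 0.701 and 0.605. The CpG-dense shares there are 35.2% and 18.2%.

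The 88 CpG-dense decreased regions lay at genes of varied function. Examples were Cox6a1, a subunit of cytochrome c oxidase (1059 bp wide, centre 31.5 bp downstream of the start, CpG ratio 0.991), Mdh1, the cytosolic malate dehydrogenase (740 bp, ratio 0.792), Sirt5, a mitochondrial deacylase (769 bp, ratio 0.669), and Crat, carnitine acetyltransferase (2363 bp, ratio 0.846), of which Mdh1, Sirt5 and Crat were picked after their values had been seen. Atp2a2, which encodes the SERCA2 calcium pump of slow and cardiac muscle, had a decreased region of 2474 bp with 79.0% GC across its start, at chr5:122500879-122503352. Tet3, which oxidises methylcytosine, had one of 2130 bp with 80.0% GC, the highest of all members. Further examples were Hoxa6 (2810 bp, ratio 0.695), Rps6kb1, the S6 kinase (898 bp, ratio 0.785), Rftn1 (880 bp, ratio 0.608) and Cmpk2 (788 bp, ratio 0.654). With the exceptions of Rps6kb1 and Rftn1, whose centres lay 486 and 572 bp downstream, the genes named in this paragraph had their nearest start inside the region.

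The MyoD E-box CAGCTG was the motif that separated decreased from increased regions most clearly. It was present, on either strand, in the central 500 bp of 233 of 606 decreased (38.4%; 95% Wilson interval 34.7 to 42.4) and 79 of 312 increased promoter regions (25.3%; 20.8 to 30.4; odds ratio 1.84, adjusted p = 0.00103, Fisher's exact test with adjustment over 15 motifs). It was in 26.5% of all principal starts, which here and below were read in 500 bp centred on the start. At principal starts the shares were 35.2% and 19.3%. The difference in the TATA box TATAAA ran the other way, at 17.8% and 26.9% (odds ratio 0.589, adjusted p = 0.0115, exact test) compared with 15.6% of principal starts, and missed the threshold at principal starts (adjusted p = 0.0688) and in 500 bp centred on the start (0.777). GC content moved with both results: within 5 strata of GC content, with the Mantel-Haenszel test in place of Fisher's exact test, the odds ratio was 1.53 for the E-box (adjusted p = 0.148) and 1.03 for the TATA box (adjusted p = 0.868), and no motif passed. The E-box alone had an unadjusted p under 0.05 in these strata. Of the other 13 motifs none passed here. The SP/KLF motif GGGCGG, at 25.6% and 20.8% over all starts, passed at principal starts, at 46.3% and 27.3% (odds ratio 2.30, adjusted p = 0.00183, exact test), and turned when 500 bp centred on the start was searched (odds ratio 0.60, adjusted p = 0.00263, exact test). TEAD (ACATTCC or GCATTCC) was at 13.7% and 12.5%, AP-1 (TGACTCA or TGAGTCA) at 9.08% and 11.2%, RUNX (TGTGGTT) at 9.24% and 12.8%, and MEF2 at 1.16% and 1.28%, in 7 decreased regions that included Ampd1 and G3bp2. The motif of estrogen-related receptors (TCAAGGTCA), nuclear receptors to which RIP140 binds, was in 6 regions of each direction (0.990% and 1.92%). The element for NRF1, a regulator of nuclear genes for mitochondria, was in 15 decreased regions (2.48%) and 2 increased ones (0.641%; adjusted p = 0.340, exact test), and these 15 included Cox6a1, Sirt5, Atp2a2 and Ggcx. Consensus matches describe letters, not binding.

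**Figure D4:**
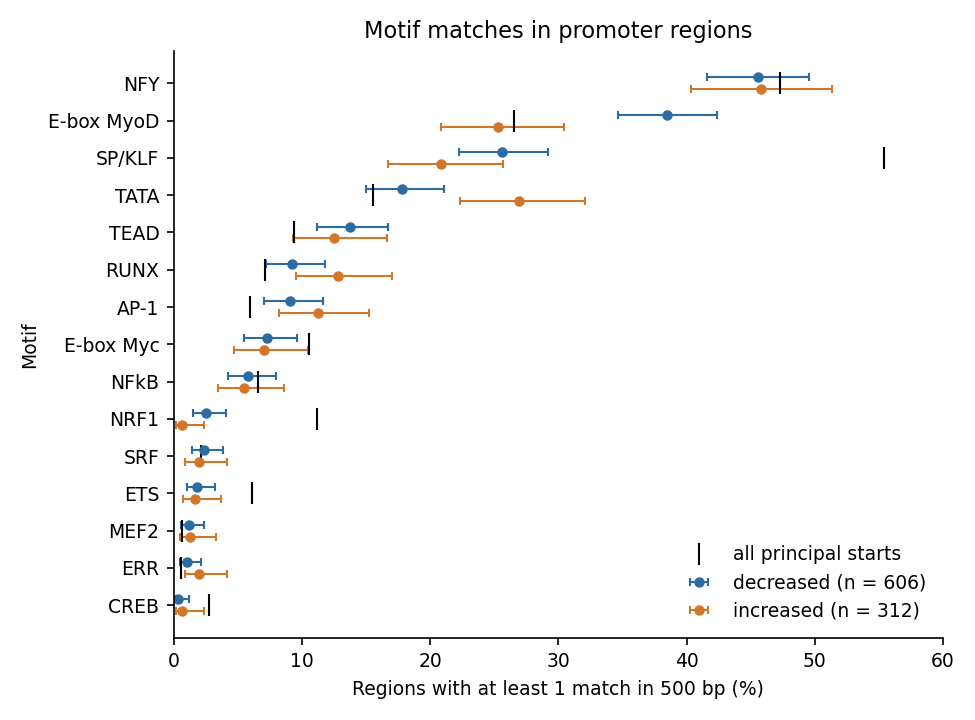
Share of decreased (n = 606) and increased (n = 312) promoter regions with at least 1 match to each of 15 motifs in the central 500 bp, in percent, with 95% Wilson intervals (counting error only). Black ticks give the share of all principal starts, read in 500 bp centred on the start. The E-box for MyoD (38.4% and 25.3%) and the TATA box (17.8% and 26.9%) are the motifs whose difference passed the test over all starts without GC strata.

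Several decreased promoter regions lay at genes of contraction, excitation and muscle metabolism. These muscle genes were gathered after the regions had been seen, so they illustrate and do not support. Chrne encodes the adult epsilon subunit of the acetylcholine receptor at the neuromuscular junction, and its decreased region (791 bp, chr11:70618947-70619737) was centred 126.5 bp upstream of the nearest start with a CpG ratio of 0.0816. Ampd1, the muscle AMP deaminase, had a region of 1820 bp across its start, and Acacb, the acetyl-CoA carboxylase that restrains mitochondrial fatty acid entry, one of 501 bp centred 232.5 bp upstream. Fhl2, a LIM protein of the sarcomere, Dhrs7c, an enzyme of the sarcoplasmic reticulum, and Ip6k3, the inositol hexakisphosphate kinase of muscle, had regions of 637, 1159 and 6781 bp that covered the start. Tmod4, which caps actin thin filaments, had one of 821 bp whose centre lay 656.5 bp downstream. Asb2, a ubiquitin ligase subunit that limits muscle mass, had a region of 4408 bp at an internal protein-coding start. Smyd2, a methyltransferase that acts on HSP90 in muscle, had one of 1552 bp. Ak1, the muscle adenylate kinase, had 2, of 1029 and 2112 bp.

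Listed genes had a decreased promoter region about as often as all genes. Of 16698 protein-coding genes on these chromosomes, 424 had a decreased promoter region, which is the background of 2.54%, and 251 had an increased one (1.5%). All 27 lists together had 26 of 831 genes with a decreased promoter region (3.13%), and 10 lists had none. Extracellular matrix genes had 4 of 33, namely Col4a1 and Col7a1 of basement membrane and anchoring fibrils, the laminin chain Lamc1 and Emilin1, of which Emilin1 alone had the region (4038 bp) at its principal start. Cytokine, STAT and NF-kB genes had 4 of 47. Among them the NF-kB subunits Nfkb2 (776 bp) and Rela (904 bp, centre 375 bp downstream) had it within 1 kb of a principal start. The start nearest to the Nfkb2 centre, 21 bp away, was that of a retained-intron transcript. Stat5a and the adaptor Traf6 had it at internal starts. Chromatin regulators had 3 of 48 (Dnmt3a, Tet3, Hdac8), and fatty acid metabolism had 2 of 39 (Acacb and Acsl6). These are counts of at most 4 genes, set beside the background and not tested.

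Several other lists had a single gene each. Pkm, the pyruvate kinase of muscle, had a region of 646 bp at a protein-coding start other than the principal. Gdf15, a stress hormone of the TGF-beta family, had one of 1501 bp centred 948.5 bp downstream. Kcnj12, a potassium channel, had one of 741 bp centred 627.5 bp downstream, and Lasp1, an actin-binding adaptor, one of 1220 bp within the gene. Of 143 genes in 8 marker lists of cell types, 2 (1.40%) had a decreased promoter region, namely Atp2a2 of the mature myotube list and Fgfr4 of the myoblast list, beside the background of 2.54%. An increased one was present at 6 (4.20%), beside 1.5%. These were Neb and Dmd of the mature myotube list, Col5a2 and Tcf4 of the fibroblast list, Abcc9 of the pericyte list and Cd36 of the adipocyte list. The mature myotube list thus had 1 gene with a decreased and 2 with an increased promoter region. Atp2a2 itself was nearest to 1 decreased and 2 increased regions of any class. Fibroblast, endothelial, pericyte, immune, adipocyte and Schwann cell markers had 0 decreased promoter regions, as did cell cycle, immediate early, Wnt and ribosome genes with 28, 25, 38 and 31 members, and at this background lists of such sizes are too small for a count of 0 to stand out.

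Width ranged from 501 to 19886 bp. The median was 858 bp (quartiles 631 and 1400.5 bp) compared with 726.5 bp in the increased class, 122 regions were at the shortest width of 501 bp, and 26 were at least 3 kb wide. The widest, of 19886 bp, covered the start of 2700069I18Rik, a non-coding gene on chromosome 3, with its centre inside Zfhx4. It was followed by Zic4, a zinc finger factor of the developing brain (6864 bp), Ip6k3 (6781 bp), Atg7, an enzyme of autophagy (5632 bp, at an internal non-coding start), Odf3l1 (5222 bp) and Adcy7, an adenylyl cyclase (5172 bp). Grtp1 (4893 bp), Asb2 (4408 bp), Gm14137 (4372 bp) and Mir7212 (4251 bp) completed the 10 widest.

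Decreased promoter regions had decreased neighbours. Another decreased region of any class lay within 10 kb of 140 (23.1%) and within 50 kb of 348 (57.4%), whereas an increased region lay within 10 kb of 14 (2.31%), all measured between centres. The nearest other region had the same direction for 83.5% of decreased and 51.0% of increased promoter regions, beside shares of 69.8% and 30.2% among all regions on these chromosomes, and this was not tested. Counting each region at the nearest start of a protein-coding transcript, Rftn1, a lipid raft protein, was nearest to 12 decreased and 0 increased regions. Itpk1, the calcium-responsive factor Nfatc2, the Groucho corepressor Tle3 and Vwc2 were each nearest to 10, and Cmpk2, Foxn3, Lhfpl2 and Plxna1 to 9. Adcy7 was nearest to 8, of which 3 were in the promoter class, and to 1 increased region.

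In 3 places the edge of an increased region lay within 1 kb of the edge of a decreased promoter region, the third being a miRNA cluster. Ccnf, which encodes cyclin F, and Polr2g, a subunit of RNA polymerase II, had a CpG-dense decreased region across the start (664 and 855 bp, centres 34.0 and 20.5 bp upstream) and an increased region within the gene, 251 and 193 bp away, of 501 and 677 bp. The increased regions were centred 708.5 and 856.5 bp downstream of their own nearest start, which differed from the start nearest to the decreased region. They had 45.4% and 43.8% GC, compared with 66.8% and 53.6% in the decreased ones. Nup153, a nucleoporin, showed the same order at a gap of 1140 bp, and Ankrd12 at 1027 bp with its decreased region upstream of the start. In all, 10 protein-coding genes had promoter regions of both directions, namely Ccnf, Polr2g, Ankrd12, Adcy7, Angpt2, G3bp2, Lmo7, Psd3, Safb2 and Xpr1. Of 16698 protein-coding genes, 424 had a decreased and 251 an increased promoter region, and the overlap was not tested.

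The closest pair was at a miRNA cluster of the X chromosome. The decreased region at chrX:53053201-53054565 (1365 bp) held the whole hairpins of Mir503 and Mir322, and an increased region of 1906 bp began 78 bp away, on the side from which the cluster is transcribed. These miRNAs of the miR-16 family are known to rise as myoblasts leave the cell cycle. The mature 5p strands, from RefSeq on GRCm38.p6 with the seed (bases 2 to 8) in capitals, share 6 of 7 seed bases, and the arms of another hairpin inside the region, Mir351, have other seeds.
mmu-miR-503-5p, chrX:53054027-53054049, minus strand: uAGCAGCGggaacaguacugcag
mmu-miR-322-5p, chrX:53054306-53054327, minus strand: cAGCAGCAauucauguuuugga
mmu-miR-351-5p, chrX:53053315-53053338, minus strand: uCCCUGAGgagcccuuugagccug
The region holds miRNA genes in its body, so the start that placed it in the promoter class is that of the Mir503 hairpin and not a mapped start of the primary transcript.

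Chromosomes differed in how often a promoter region was decreased. Chromosome 8 had 57.8 decreased promoter regions per 1000 protein-coding genes and chromosome X had 10.5. Decreased regions outnumbered increased ones on 14 of 16 chromosomes, beside totals of 606 decreased and 312 increased promoter regions. Chromosome 17 had the highest share of decreased regions, 46 of 59 (78.0%), and chromosome 13 the lowest, 18 of 42 (42.9%), and these counts were not tested. DNA copy number in the cultures was not measured and cannot be told apart from a change in the mark.

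**Figure D5:**
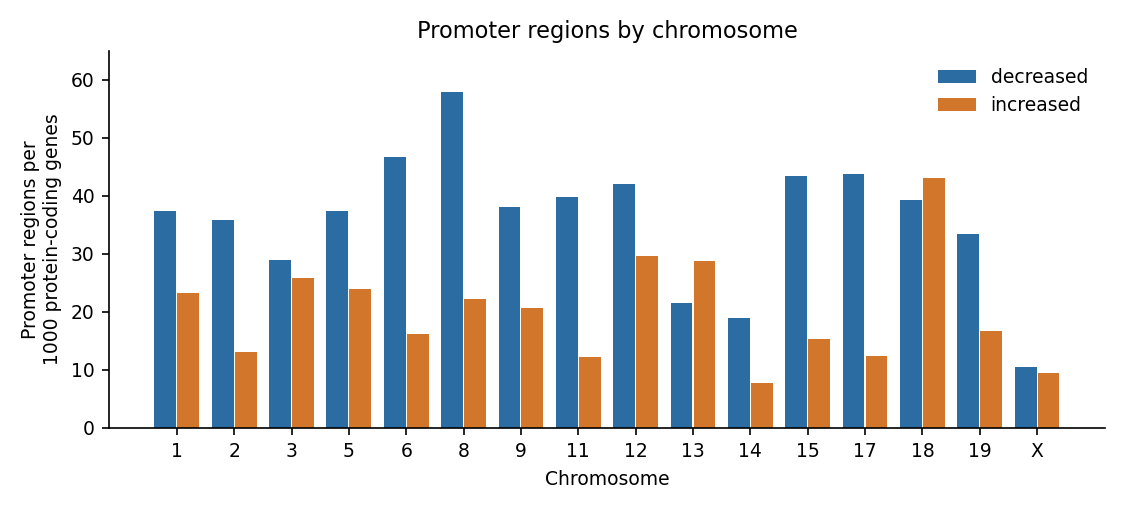
Decreased and increased promoter regions per 1000 protein-coding genes on each of the 16 chromosomes examined. Decreased regions ranged from 10.5 on X to 57.8 on chromosome 8 and were outnumbered by increased ones on 2 chromosomes.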

How the data were processed

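CUT&RUN with an antibody to H3K27ac or control IgG was performed in 8 libraries of primary myotubes (4 groups of 2). The authors aligned paired reads to mm10 with BWA-MEM2 (2.2.1), called broad peaks with HOMER (4.11) and kept regions whose intensity differed by 2-fold or more. How replicates and IgG entered the calls is not given in the sources used here, and the labels and the methods name different suppliers of the H3K27ac antibody. The deposited lists, 1 per direction, hold positions and a constant score, which was not used. Depth is unknown, and a difference in depth or efficiency between libraries would pass into the calls.

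Starts, gene bodies and exons came from GENCODE M21, and sequence from GRCm38.p6 and RefSeq. Each region was placed by its centre, and a tie between starts went to the protein-coding transcript. Properties and consensus motifs (both strands, central 500 bp) of decreased and increased promoter regions were compared with two-sided Fisher's exact tests and Benjamini-Hochberg adjustment over 5 properties or 15 motifs (SciPy 1.17.1), with a threshold of 0.05. Where only protein-coding or principal starts were used, the protein-coding share was left out of the properties and of their adjustment. Wilson intervals cover counting error only. The tests were run beforehand on these regions with simulated directions. Gene lists were described by counts. The text names list genes with a decreased promoter region, the 10 widest regions, the 10 genes nearest to most decreased regions, genes with both directions, and the 10 listed genes centred closest to a protein-coding start, and, chosen after their values were seen, muscle genes and a few other regions (such as those of Ggcx, Nup153, Mir503, Pvt1 and Chaer1). Members and lists were chosen with earlier results of these data known. Alternatives changed the distance, the starts, the width, the chromosomes, the joining of neighbours, the CpG definition and the sequence window. A listed gene is not reported here by name.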

Additional observations from a re-analysis of the deposited data

How the results depend on the processing

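No paired analysis was possible because the deposited lists hold no value per library, and for the same reason no library could be left out. The number of decreased promoter regions followed the definition, at 383 within 0.5 kb, 1141 within 2.5 kb, 306 at protein-coding transcript starts, 227 at principal starts and 256 at least 1 kb wide. The use of principal starts, of the central 500 bp as the interval and of GC strata was added after the data had been seen. Adjusted p-values are from Fisher's exact tests. The cause was not tested for any change below.

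The CpG-dense difference, 1.70 percentage points over all starts, was 11.1 at protein-coding starts (adjusted p = 0.00616, exact test) and 17.1 at principal starts, but -0.561 within 2.5 kb, -0.658 at 1 kb width, -0.974 over all chromosomes and -14.7 in sequence centred on the start. The start-inside difference of 17.7 percentage points fell to 8.91 within 0.5 kb (adjusted p = 0.0504, exact test), 8.31 at 1 kb width (0.179) and 6.28 with the central 500 bp, and to 6.13 within 2.5 kb, where it passed (0.0322). The upstream difference of 1.46 was -8.90 at protein-coding starts and -10.7 at principal starts (adjusted p = 0.042, exact test). The protein-coding share missed the threshold at 1 kb width alone (-13.5) and has no value where only protein-coding starts were used. The divergent difference of -5.35 missed it at -6.49 within 0.5 kb, -3.92 at protein-coding starts and -4.03 at principal starts, and was -11.0 at 1 kb width (adjusted p = 0.0407, exact test) and -9.47 over all chromosomes (1.25e-06). Of 15 motifs, 2 passed over all starts and 0 within 0.5 kb, at 1 kb width and in 5 GC strata. At protein-coding starts, at principal starts and in 500 bp centred on the start SP/KLF passed with the E-box and the TATA box did not.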
